A study of Mus musculus with 5 samples.

Results

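The genes described are 40 mitosis and DNA replication genes, read from whole-transcript arrays of mouse heart. Each gene was read from the probe set that carries its symbol alone and has the highest mean over the 5 arrays. Of the 40 genes, 38 had such a probe set, out of 22180 genes on the array, and Ccnb1 and Ncapg were not analysed here. The arrays held total RNA from hearts of male mice aged 12 weeks on the C57BL/6 background, 3 wild type (replicates 3, 4 and 5) and 2 Akita (replicates 1 and 3). In the Akita strain, 1 allele of the insulin gene Ins2 is mutant (Ins2+/-), and the labels name it as a model of type 1 diabetes, with no blood glucose given. Whether each sample came from its own animal is not labelled, so p-values here weigh only how much these samples scattered, part of which may be technical.

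A dividing cell copies its DNA in S phase and parts the copies in mitosis. The MCM helicase opens the DNA and the clamp PCNA holds the polymerase on it, while cyclins with the kinase CDK1, the Aurora and Polo kinases and the spindle motors carry out mitosis. Most of these genes are silenced in resting cells and switched on by E2F factors for S phase and by B-MYB and FOXM1 for mitosis. Adult heart myocytes seldom divide, so these transcripts in heart RNA are commonly read as coming largely from other dividing cells such as fibroblasts, endothelial cells and leukocytes, a point that whole-tissue RNA does not resolve. In such RNA, fewer cells of a type and less RNA per cell cannot be told apart.

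The promoters of these genes carry short letter patterns that the group is known for, and they are shown because many members moved together in the same array. RefSeq promoters of build GRCm38.p6, from 250 bases before each annotated start to 50 bases from it on, matched 34 of the 40 genes with 37 promoters. Ccna2, Aurkb, Kif20a, Tpx2, Mcm4 and Foxm1 had no entry. The 3 patterns searched on both strands were: the core of the cell cycle homology region (TTTGAA or TTTAAA, the second being its own reverse complement), the CCAAT box, and the E2F site (TTTCCCGC or TTTGGCGC). Matches of different patterns overlapped in 1 case among 115 matches. The stretches below run 5′ to 3′ over the 150 bases before the start, with the matches in capitals (ATTGG and TTCAAA are the reverse complements of CCAAT and TTTGAA), for genes higher in both Akita arrays (Ccnb2, Aurka, Mcm6) and in Akita replicate 3 alone (Top2a, Ect2, Prc1).
Ccnb2 (chr9:70421555-70421704, minus strand): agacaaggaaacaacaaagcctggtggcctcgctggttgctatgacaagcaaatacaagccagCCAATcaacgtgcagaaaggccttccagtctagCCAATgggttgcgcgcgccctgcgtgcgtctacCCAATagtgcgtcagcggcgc
Aurka (chr2:172370571-172370720, minus strand): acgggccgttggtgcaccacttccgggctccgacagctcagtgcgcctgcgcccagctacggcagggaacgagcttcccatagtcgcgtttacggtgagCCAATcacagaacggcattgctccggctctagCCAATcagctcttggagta
Mcm6 (chr1:128359706-128359855, minus strand): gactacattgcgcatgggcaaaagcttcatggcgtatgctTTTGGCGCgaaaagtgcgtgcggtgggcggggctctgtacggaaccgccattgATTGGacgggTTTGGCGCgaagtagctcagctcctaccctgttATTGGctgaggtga
Top2a (chr11:99024190-99024339, minus strand): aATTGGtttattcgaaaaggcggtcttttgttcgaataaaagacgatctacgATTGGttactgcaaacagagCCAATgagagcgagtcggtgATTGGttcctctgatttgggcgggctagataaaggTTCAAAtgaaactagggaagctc
Ect2 (chr3:27153855-27154004, minus strand): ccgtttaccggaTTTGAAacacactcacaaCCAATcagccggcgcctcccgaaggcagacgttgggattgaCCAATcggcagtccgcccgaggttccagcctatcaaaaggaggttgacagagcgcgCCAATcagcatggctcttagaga
Prc1 (chr7:80294326-80294475, plus strand): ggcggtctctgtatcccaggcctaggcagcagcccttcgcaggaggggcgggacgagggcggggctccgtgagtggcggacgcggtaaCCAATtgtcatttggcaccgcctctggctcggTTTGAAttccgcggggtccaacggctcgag
Before the start of Ccnb2, 3 CCAAT boxes began at bases -87, -54 and -21, each 33 bases from the next, and a TTTGAA began just after the start, at base 5. Top2a held CCAAT boxes on both strands and a homology core at base -23, and Prc1 a CCAAT box at -62 and a core at -30. Mcm6, of the replicative helicase, held E2F letters at -110 and -47 and no homology core. Ect2 and Prc1 have a second annotated start, and the stretch shown precedes the downstream one.

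The homology core was found in 27 of the 37 promoters (73.0%), against 27.6% of all 32851 promoters of the same length. It was in 24 of 26 promoters of mitosis genes and in 3 of 10 promoters of replication and nucleotide genes. Among the 26, Ect2 and Prc1 each count through 2 overlapping windows. Mitosis genes outside the members, from a list described below, held the core in 33 of 53 promoters (62.3%) and CCAAT boxes in 64.2%. Among the 37 member promoters, CCAAT boxes were in 32 (86.5%), against 37.4% of all, and E2F letters in 5 (13.5%), against 1.56%. Of those 5 promoters, 4 belonged to the helicase genes Mcm3, Mcm5, Mcm6 and Mcm7 and the other to Ncapg. Nusap1, Tyms and E2f1 held none of the 3 patterns. These are matches of letters in a fixed window and show neither binding nor its absence. The 21 tested members with the homology core had a median log2 difference of 0.21 between Akita and wild type and the 8 without it 0.11, and in Akita replicate 3 their medians over the wild type mean were 0.25 and 0.23. In Akita replicate 1 these medians ran the other way, at 0.017 and 0.035.

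**Figure D1:**
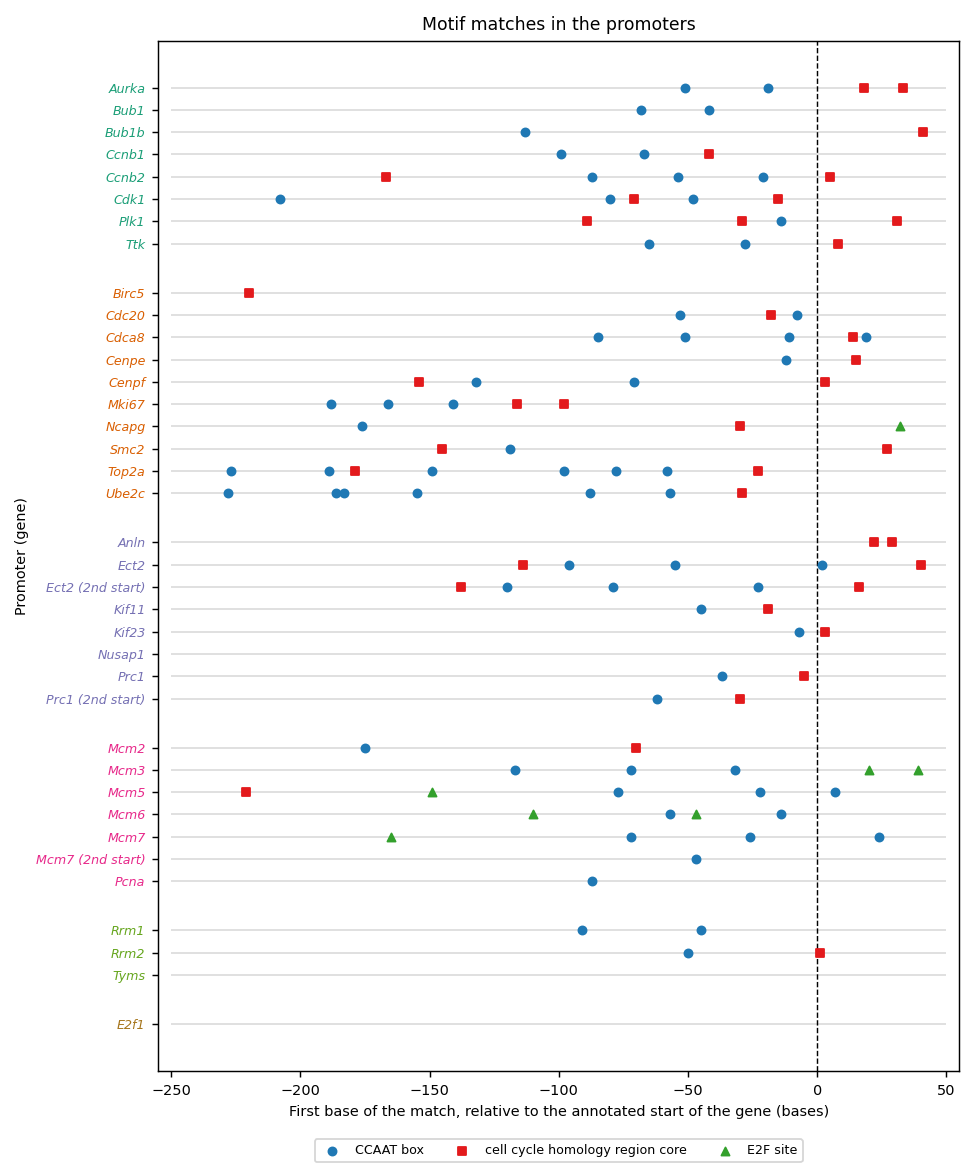
Positions of the 3 letter patterns in the 37 promoters, with the first base of each match on the x axis in bases from the annotated start (dashed line) and a promoter on each line, coloured by role (from top: mitotic kinases and cyclins, kinetochore and chromosome proteins, spindle and cytokinesis proteins, replicative helicase and clamp, deoxynucleotide synthesis, transcription factors). Squares (homology core) are found in 24 of 26 promoters of mitosis genes, and triangles (E2F site) mostly on the helicase genes.

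Most of the listed members lay slightly higher in the Akita hearts, largely through Akita replicate 3, and no member passed the test. Values are log2 signals, so a difference of 1 is a doubling. A filter at the 30th percentile of the mean signals (4.06) removed Bub1, Birc5 and Cdca8 from the test and left 35 members among 15528 genes. Of the 35, 30 lay higher in Akita and 5 lower, where 43.3% of all genes tested lay higher. Their median difference was 0.145, against -0.03 over all genes tested. The members were chosen with earlier results of these data known, so this contrast is descriptive. It also varied with signal, since the median over all genes fell as signal rose. At a mean signal from 4.06 to 5 the median was 0.08 over all genes tested and 0.15 over 16 members. From 5 to 6 it was 0 over all genes and 0.15 over 15 members, and from 6 to 7 -0.11 and 0.035 (2 members). In related lists described below, 24 of 34 tested other mitosis genes lay higher and 10 lower. Of 40 tested other replication genes, 17 lay higher and 23 lower. Among the 35 members, the highest difference was 0.45 (Cenpe, a fold of 1.36) and the lowest -0.24 (Ube2c), with standard errors from 0.11 to 0.24. By limma, with p adjusted by Benjamini-Hochberg across the whole table, 0 of the 35 members passed 0.05, where 0.328% of all genes did (33 higher and 18 lower). At an unadjusted p under 0.05, 2 members lay higher (Cenpe and Bub1b), where 4.13% of all genes did, and 0 lay lower, where 9.49% did. The share of members was thus near the background in the higher direction and under it in the lower one.

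**Figure D2:**
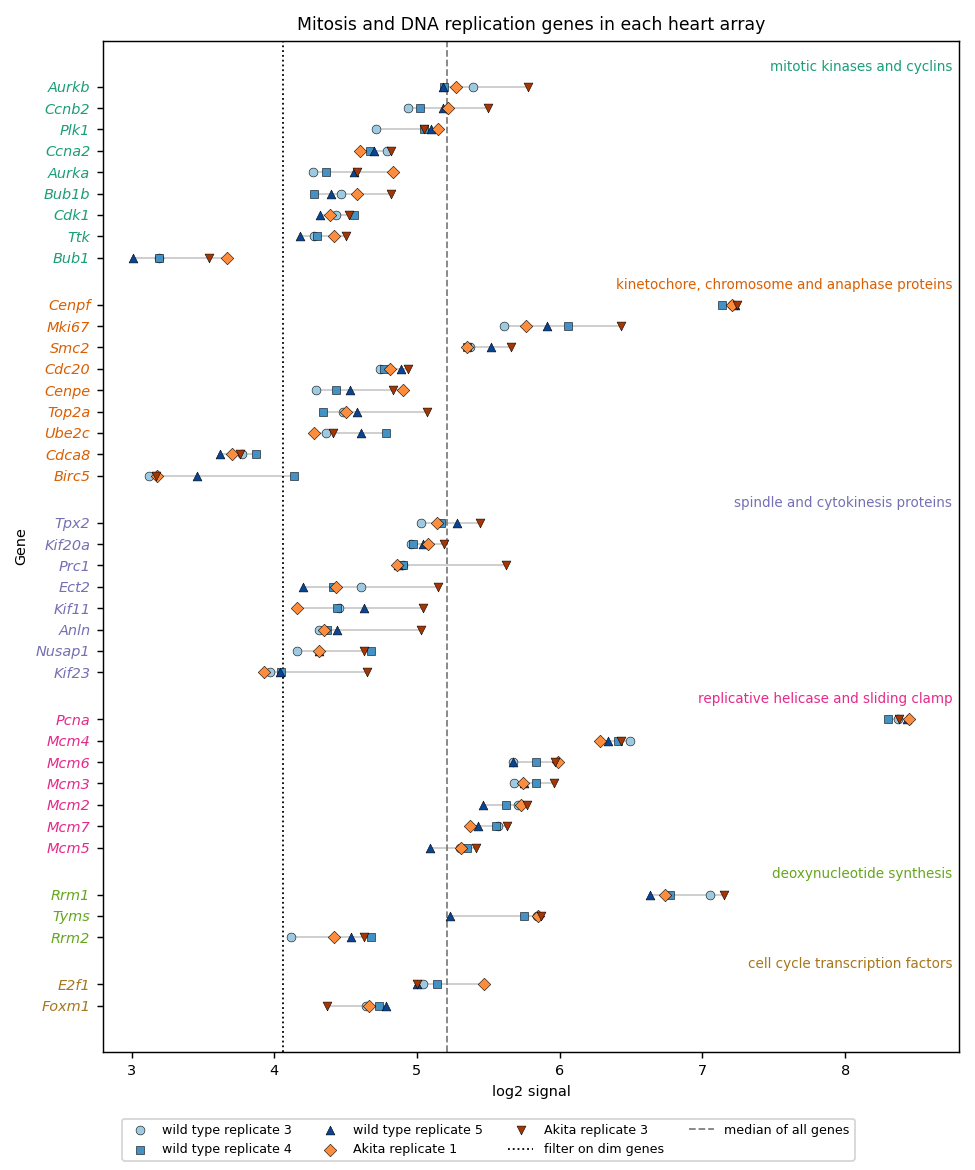
Log2 signal (x axis) of the 38 members (y axis, grouped by role) in each of the 5 arrays, with the filter on dim genes (dotted) and the median of all genes (dashed). Inverted triangles, Akita replicate 3, stand to the right of every wild type array in genes such as Prc1, Ect2, Anln and Top2a, while Pcna and Cenpf hardly vary.

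The signals of the members were low for this array. Of the 38, 24 lay under the median of all genes (5.21) and 34 had a mean signal under 6, and the values carry no detection call. Signals of different probe sets do not rank transcripts, so levels are compared only within a gene. Genes of low signal in general were shifted in the other Akita array. Over all 3735 tested genes with a mean signal from 4.06 to 5, the median over the wild type mean was 0.16 in Akita replicate 1 and 0.00 in replicate 3. The 16 members in that range stood at -0.03 and 0.25. From 5 to 6, the 3115 genes stood at -0.01 in both arrays and the 15 members at 0.06 and 0.25.

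In 9 of the 35 members (25.7%) both Akita arrays lay above all wild type arrays, where 9.89% of all genes did. The share over all genes varied with signal, and most members were dim. It was 11.9% with no filter, where 10 of 38 members did. With the filter at the 50th percentile it was 7.29%, where 3 of 14 members did. The 9 of the 35 were Ccnb2, Aurka, Bub1b, Ttk, Cenpe, Kif20a, Mcm2, Mcm6 and Tyms. In 17 more, Akita replicate 3 alone lay above the wild type range, and in Plk1, Pcna and E2f1 replicate 1 alone did. Replicate 3 thus exceeded the wild type range in 26 members (74.3%), where it did in 25.2% of all genes, and replicate 1 in 12 (34.3%), where it did in 24.4%. Replicate 3 was the highest of the 5 arrays in 23 members, where it was in 19.7% of all genes, and replicate 1 in 6, where it was in 19.6%. In 0 members did both Akita arrays lie under all wild type arrays, where they did in 19.9% of all genes. Left out of the fit, Akita replicate 3 took the split of the members from 30 higher and 5 lower to 18 and 17, so 12 members changed sign, and the median to 0.01. Without Akita replicate 1 the median was 0.25 and 11 members lay higher at an unadjusted p under 0.05, where 5.01% of all genes did, with an adjusted p of at least 0.115. That fit holds a single Akita array, so its spread comes from wild type alone and the Akita array is assumed to vary like it. How the arrays were scaled also moved these counts. The members higher without overlap numbered 4 after quantile normalization of the deposited values (11.5% of all genes). They numbered 18 with the arrays centred on the median of the genes tested (18.2% of all genes).

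**Figure D3:**
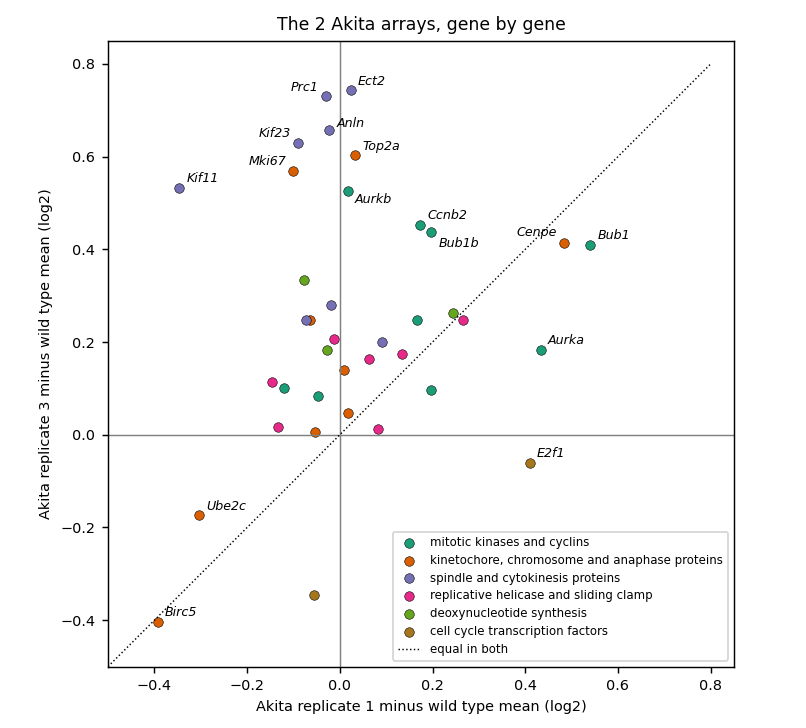
Each point is a member, placed by its log2 signal minus the wild type mean in Akita replicate 1 (x axis) and in Akita replicate 3 (y axis) and coloured by role. The 8 labelled points above 0.5 on the y axis, Ect2 and Prc1 at the top, lie near 0 on the x axis except Kif11 at -0.35, while Cenpe and Bub1 lie near the dotted line of equal values.

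Akita replicate 3 also stood apart in markers of other parts of the heart, and these values stand beside every result that rests on it. Heart muscle was plain in every array: 10 of 10 myocyte markers were measured, with a median signal of 12.53. In 5 of the 10 both Akita arrays lay under all wild type arrays and in 2 above them, where 19.9% and 9.89% of all genes tested did. The summed linear signal of the list was 58824 to 60477 in wild type, 58726 in Akita replicate 1 and 64013 in replicate 3. That sum includes Nppa, which is also in the atrial list. The median of the 10 over the wild type mean was -0.05 in replicate 1 and -0.075 in replicate 3. In replicate 3 alone, 6 of the 10 lay under all wild type arrays and 2 above, where 4576 and 3906 of all 15528 genes tested did. Of 6 atrial markers, 6 were measured and 6 lay higher in replicate 3 than in any wild type array, where 25.2% of all genes tested did. Bmp10, a growth factor of atrial myocytes, lay at 4.63, 4.64 and 5.18 in wild type and at 5.71 and 10.83 in Akita replicates 1 and 3. The summed linear signal of the atrial list was 4447 to 4784 in wild type, 5265 in Akita replicate 1 and 16551 in replicate 3. For the 8 fibroblast markers it was 5413 to 5656, then 5955 and 7645, and for the 8 epicardial and mesothelial markers 1508 to 1554, then 1332 and 1824. None of the markers in these 3 lists fell under the filter. White adipocyte markers, 6 of 6 measured and 4 above the filter, were high in both Akita arrays, at 3060 to 3390 in wild type and then 4004 and 4047. Endothelial markers, 8 of 8 measured, lay at 5310 to 5872, then 5793 and 6284. Smooth muscle and pericyte markers, 7 of 7 measured, lay at 6941 to 7311, then 6853 and 7525. In replicate 3, 5 of these 7 lay above all wild type arrays, where 25.2% of all genes tested did. The part of these markers in the results on the members was not tested.

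**Figure D4:**
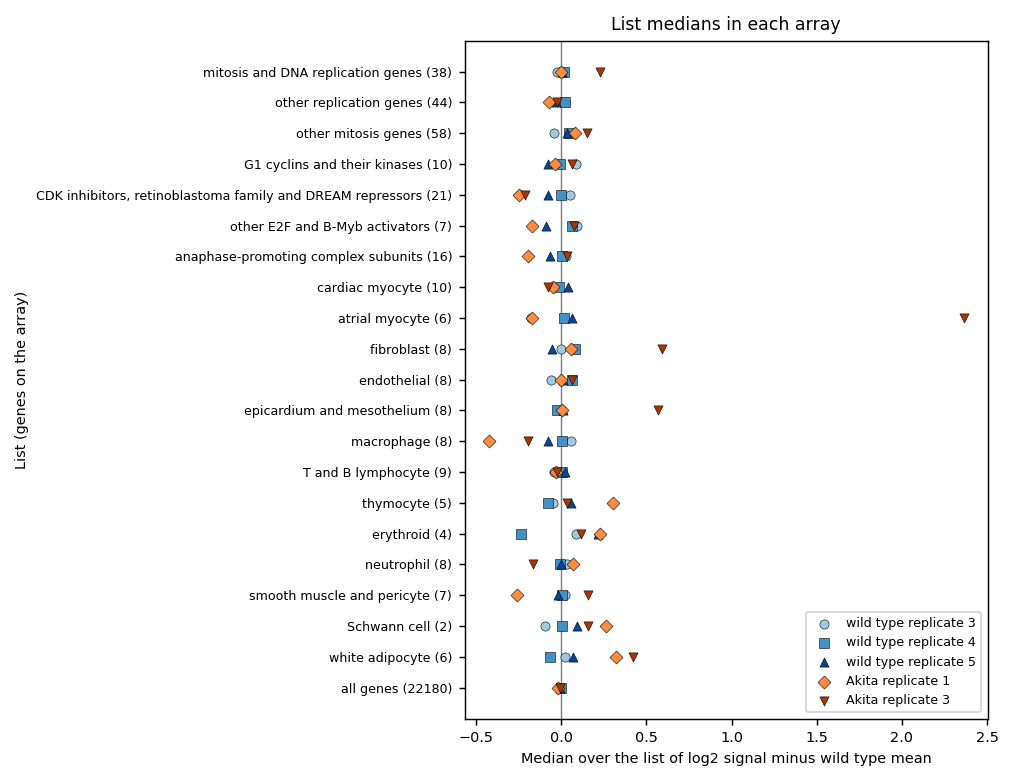
Median over each list of log2 signal minus the wild type mean (x axis), for the members, 6 lists of related cell cycle genes, 13 lists of cell type markers and all genes (y axis, number on the array in brackets), with a symbol for each array. In Akita replicate 3 the members stand at 0.23 and the atrial, fibroblast and epicardial lists at 2.36, 0.59 and 0.57, while all genes stand at -0.01.

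The lists of leukocyte markers were not high in replicate 3, and their part in the results on the members was not tested. Of 11 lymphocyte markers, 9 were measured and 6 passed the filter, and their summed linear signal was 187 to 207 in wild type and 181 and 190 in Akita replicates 1 and 3. Of 8 macrophage markers, 8 were measured, at 1492 to 1658 in wild type and 1113 and 1407 in the Akita arrays. Of these 8, 7 lay lower in Akita and 0 higher. In 5 both Akita arrays lay under all wild type arrays, where 19.9% of all genes tested did. Neutrophil markers, 8 of 8 measured and 1 above the filter, lay at 108 to 115, then 110 and 99.4. The thymocyte list, where Rag2, Dntt and Themis lay under the filter, was at 75.8 to 87.6 in wild type and 96.1 and 78.2 in the Akita arrays, so it was high in replicate 1 and not in replicate 3.

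Mitotic kinases and cyclins held 4 of the 9 genes whose groups did not overlap. Ccnb2, a cyclin that activates CDK1 in mitosis, lay at 4.94, 5.02 and 5.18 in wild type and 5.22 and 5.50 in Akita replicates 1 and 3 (log2 difference 0.31, SE 0.14, adjusted p = 0.372). Bub1b, which encodes the spindle checkpoint protein BUBR1, lay at 4.47, 4.28 and 4.40, then 4.58 and 4.82 (0.32, SE 0.13, adjusted p = 0.338). Aurka, the Aurora kinase of spindle poles, lay at 4.27, 4.36 and 4.56, then 4.83 and 4.58 (0.31, SE 0.14, adjusted p = 0.386). In each of these both Akita arrays lay above wild type, the lower of them by a narrow margin in Ccnb2 and Aurka. Ttk, the checkpoint kinase MPS1, lay at 4.28, 4.30 and 4.18, then 4.42 and 4.50 (0.21, SE 0.11, adjusted p = 0.460), both Akita values above wild type. Bub1, a checkpoint kinase under the filter and so untested, lay at 3.19, 3.19 and 3.01 and then at 3.67 and 3.54.

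Cdk1, Ccna2 and Plk1 showed less. Cdk1 itself, the central mitotic kinase, lay at 4.43, 4.56 and 4.32 in wild type and 4.39 and 4.52 in Akita (0.02, 95% confidence interval -0.27 to 0.30, adjusted p = 0.965), and the sign turned after quantile normalization (-0.07). Its S and G2 phase partner Ccna2 differed by -0.01 (-0.29 to 0.27), or 0.08 with the arrays centred on the genes tested. Plk1, the Polo kinase, differed by 0.15 (adjusted p = 0.705). The groups overlapped in all of these, and the intervals leave room for changes in either direction. Aurkb, the Aurora kinase of the chromosomal passenger complex, lay at 5.39, 5.19 and 5.18 in wild type and 5.27 and 5.78 in Akita (0.27, SE 0.17, adjusted p = 0.529), high in replicate 3 alone.

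**Figure D5:**
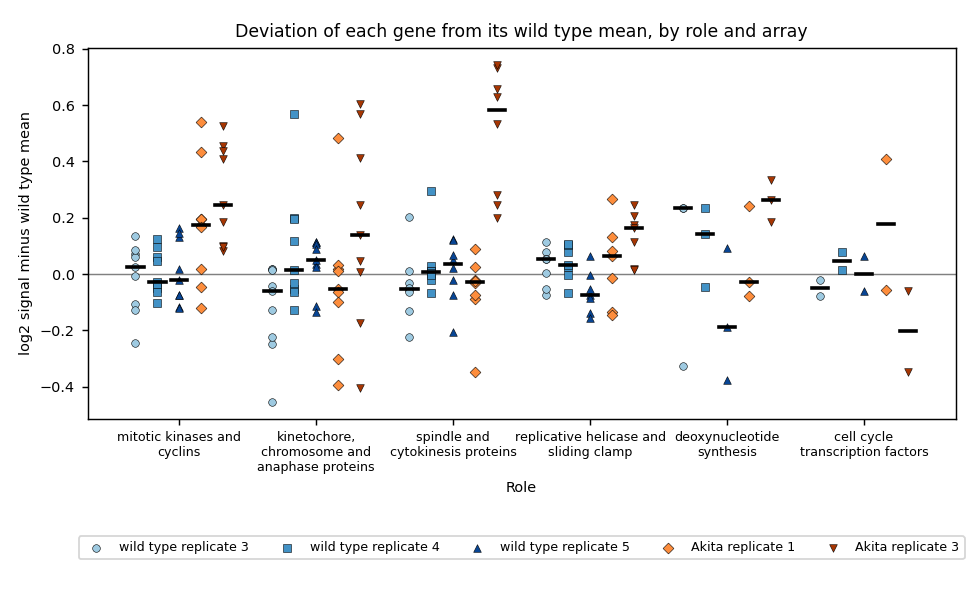
Log2 signal of each member minus its wild type mean (y axis) by role (x axis) and array, where each point is a gene and each black bar the median of its role. The bar of the spindle and cytokinesis genes in Akita replicate 3 stands at 0.58, and in replicate 1 at -0.03.

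Kinetochore and chromosome genes held the member of smallest p. Cenpe, a kinetochore motor that brings chromosomes to the spindle equator, lay at 4.29, 4.43 and 4.53 in wild type and 4.90 and 4.83 in Akita (log2 difference 0.45, SE 0.12, 95% confidence interval 0.17 to 0.73, adjusted p = 0.203). Both Akita arrays stood clear of the wild type range, and its difference was 0.48 and 0.41 without Akita replicate 3 or 1. Top2a, the topoisomerase that untangles replicated DNA, lay at 4.48, 4.34 and 4.58, then 4.50 and 5.07 (0.32, SE 0.18, adjusted p = 0.485), with replicate 1 inside the wild type range. Mki67, the proliferation marker Ki-67 that coats mitotic chromosomes, lay at 5.61, 6.06 and 5.91, then 5.76 and 6.43 (0.24, SE 0.22, adjusted p = 0.684), high in replicate 3 alone, and differed by -0.10 without that array. Cenpf, an outer kinetochore protein, lay at 7.21, 7.14 and 7.23 in wild type and 7.21 and 7.24 in Akita, with a difference of 0.03 (-0.21 to 0.28), or -0.01 with the arrays centred on the median of all named probe sets.

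Ube2c, the conjugating enzyme of the anaphase-promoting complex, lay at 4.36, 4.78 and 4.61 in wild type and 4.28 and 4.41 in Akita (log2 difference -0.24, SE 0.15, adjusted p = 0.527), and replicate 3 overlapped wild type. Cdc20, an activator of the same complex, differed by 0.08 (adjusted p = 0.821), or by -0.01 after quantile normalization. Birc5 and Cdca8, passenger complex subunits under the filter, differed by -0.40 and -0.02. Wild type replicate 4 alone lay high for Birc5, at 4.14, against 3.12 to 3.46 in the other wild type arrays and 3.18 and 3.17 in Akita. Smc2, a condensin subunit, differed by 0.09 (adjusted p = 0.812).

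Spindle and cytokinesis genes set the Akita arrays apart from each other more than any other role. All 8 lay higher in Akita as a mean, yet their median over the wild type mean was -0.03 in Akita replicate 1 and 0.58 in replicate 3. Prc1, which bundles the microtubules of the central spindle, lay at 4.90, 4.90 and 4.87 in wild type and 4.86 and 5.62 in Akita (log2 difference 0.35, SE 0.21, adjusted p = 0.509). Ect2, the exchange factor that starts the cleavage furrow, lay at 4.61, 4.41 and 4.20, then 4.43 and 5.15 (0.38, SE 0.22, adjusted p = 0.497). Anln, the furrow scaffold anillin, lay at 4.31, 4.37 and 4.44, then 4.35 and 5.03 (0.32, SE 0.19, adjusted p = 0.523). In all 3, Akita replicate 1 lay in or under the wild type range and replicate 3 stood over 0.5 above its top, and without replicate 3 the differences were -0.03, 0.02 and -0.02.

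The motors followed the same split. Kif23, the central spindle motor, lay at 3.97 to 4.05 in wild type and 3.93 and 4.65 in Akita, and Kif11, which pushes the spindle poles apart, at 4.44 to 4.63 and then 4.16 and 5.04. Kif11 had the widest error of the members (log2 difference 0.09, SE 0.24), since replicate 1 was its lowest array and replicate 3 its highest; without replicate 3, Kif11 differed by -0.35 and Kif23 by -0.09. Kif20a, a motor of cytokinesis, was the role's sole gene without overlap, at 4.96, 4.97 and 5.04 in wild type and 5.08 and 5.19 in Akita (0.15, SE 0.11, adjusted p = 0.601). Tpx2, the activator of Aurora A on the spindle, lay at 5.03, 5.17 and 5.28, then 5.14 and 5.44 (0.13, SE 0.14), and the microtubule binder Nusap1 differed by 0.09, both with overlapping groups. In all, 8 tested members stood at least 0.5 above the wild type mean in replicate 3 (Aurkb, Top2a, Mki67, Kif11, Kif23, Prc1, Ect2 and Anln; 22.9% of those tested, against 2.75% of all genes). In replicate 1, 0 of the 35 tested members did, where 4.29% of all genes did, and the untested Bub1 stood 0.54 above. The same 8 were the tested members whose Akita arrays lay over 0.5 apart, where 9.97% of all genes did.

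Replication genes were steadier between arrays. Mcm6, a subunit of the replicative helicase, lay at 5.67, 5.83 and 5.67 in wild type and 5.99 and 5.97 in Akita (log2 difference 0.26, SE 0.11, adjusted p = 0.374), with both Akita arrays above all wild type arrays and close to each other. Mcm2 lay at 5.71, 5.62 and 5.46, then 5.73 and 5.77 (0.15, SE 0.12), and its groups also did not overlap, by a narrow margin. The other 4 helicase subunits overlapped, with differences of 0.10 (Mcm3), 0.11 (Mcm5), -0.02 (Mcm7) and -0.06 (Mcm4), the last pair at 0.08 and 0.04 with the arrays centred on the genes tested. Since the 6 subunits form a single ring, their values are given together: 4 lay higher and 2 lower, none past the test. Pcna, the sliding clamp, lay at 8.37, 8.30 and 8.43 in wild type and 8.45 and 8.38 in Akita (0.05, 95% confidence interval -0.21 to 0.30, adjusted p = 0.886).

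Genes of deoxynucleotide supply differed by less than their spread. Tyms, thymidylate synthase, lay at 5.84, 5.75 and 5.23 in wild type and 5.85 and 5.87 in Akita (log2 difference 0.25, SE 0.19, adjusted p = 0.599); its groups just failed to overlap, and its wild type spread came from replicate 5. Rrm1, the large subunit of ribonucleotide reductase, lay at 7.05, 6.77 and 6.63, then 6.74 and 7.15 (0.13, SE 0.17), and differed by -0.077 without Akita replicate 3. Rrm2, its S phase subunit, lay at 4.12, 4.68 and 4.54, then 4.42 and 4.63 (0.08, SE 0.18). It is the sole member with 2 probe sets, and the dimmer one differed by -0.11, so its direction was not settled.

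The 2 transcription factors differed in opposite directions, neither past the test. Foxm1, the activator of mitotic genes, lay at 4.64, 4.73 and 4.78 in wild type and 4.66 and 4.37 in Akita (log2 difference -0.20, SE 0.13, adjusted p = 0.538), and was lowest in replicate 3, the array where spindle genes were highest. E2f1, the S phase activator, lay at 5.04, 5.14 and 5.0, then 5.47 and 5.0 (0.18, SE 0.16, adjusted p = 0.667), so it was high in replicate 1 and within the wild type range in replicate 3.

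Other genes of the pathway, from lists drawn up with earlier results of these data known, gave no gene past the test either. Of 60 other mitosis genes, 58 were on the array and 34 passed the filter; 0 passed the test, 7 lay higher and 1 lower at an unadjusted p under 0.05, where 4.13% and 9.49% of all genes did, and the median difference of those tested was 0.10, or -0.04 over the 10 genes of them above the median signal. The smallest p fell to Kif18b, a motor that shortens spindle microtubules, at 5.08, 4.91 and 5.16 in wild type and 5.48 and 5.72 in Akita (log2 difference 0.55, SE 0.13, adjusted p = 0.174), to the kinetochore gene Nuf2 (0.47, adjusted p = 0.208) and to the condensin gene Ncapg2 (0.61, adjusted p = 0.217). In each of these both Akita arrays lay above all wild type arrays. Of 46 other replication genes, 40 were tested and 0 passed, 4 lay higher and 2 lower at an unadjusted p under 0.05, against the same shares, and the median was -0.07, or 0.02 with the arrays centred on the median of the genes tested. They included the histone chaperone gene Chaf1a (0.44, adjusted p = 0.228), the licensing factor Cdt1 (0.40, adjusted p = 0.291) and, lower, the polymerase subunit Pold2 (-0.38, adjusted p = 0.257).

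Most genes in a list of CDK inhibitors, the retinoblastoma family and DREAM subunits lay lower, without a call. This list of 21 genes also held E2f6, Btg1, Btg2 and Meis1. All 21 were tested, and 17 lay lower and 4 higher. The median difference was -0.22, and it stayed between -0.26 and -0.12 over the settings and left-out arrays tried. Of these 21, 0 passed the test, while 5 lay lower at an unadjusted p under 0.05 and in 9 both Akita arrays lay under all wild type arrays, where 9.49% and 19.9% of all genes did. E2f4, the repressive E2F of resting cells, lay at 8.0, 8.2 and 7.82 in wild type and 7.28 and 7.72 in Akita (log2 difference -0.51, SE 0.17, adjusted p = 0.289). E2f6, another repressive E2F, differed by -0.43 (adjusted p = 0.291) and the DREAM subunit Lin37 by -0.34 (adjusted p = 0.30). Genes with a mean signal of 7 or more, as E2f4 and E2f6 have, lay lower in general, at a median of -0.07 over 5629 genes.

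The engines of G1 phase and the anaphase-promoting complex gave no call. The G1 list held cyclins, their kinases, Cdc25a, Myc and Mycn. Of its 10 tested genes 0 passed and 0 had an unadjusted p under 0.05. Their median was -0.01, or 0.09 with the arrays centred on the genes tested. In 3 of the 10 both Akita arrays lay above wild type, where 9.89% of all genes did: Cdk6 (0.35, adjusted p = 0.397), Myc (0.19) and Ccnd1 (0.15). Of 16 anaphase-promoting complex genes 0 passed, 3 lay lower at an unadjusted p under 0.05, where 9.49% of all genes did, and 13 lay lower at all, with a median of -0.08, or 0.02 with the arrays centred on the median of the genes tested and 0.03 without Akita replicate 1; the smallest p fell to the activator Fzr1 (-0.34, adjusted p = 0.282). Among 7 other E2F and B-Myb activators 0 passed and 0 had an unadjusted p under 0.05, and B-Myb itself, Mybl2, lay at 4.16, 4.10 and 4.41 in wild type and 4.32 and 4.70 in Akita (0.29, adjusted p = 0.476), its highest value in replicate 3.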

How the data were processed

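Total heart RNA of the 5 samples was amplified over whole transcripts, biotinylated and hybridised, as the labels describe. For each array the authors deposited a log2 signal per probe set, made with Affymetrix Expression Console per the submitters' processing notes; how it summarised probes, and its version, are not given here. That the scale is log2 was inferred from the values (1.27 to 13.66), and whether arrays were normalized to each other is not stated. Of 41345 probe sets, 23521 had exactly 1 gene symbol in the platform annotation and 1814 several. Each gene was read from its probe set of highest mean, and a filter at the 30th percentile of the means left 15528.

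The difference, Akita less wild type, was fitted by limma 3.58.1 under R 4.3.3 (lmFit, then eBayes, with 3 residual and 4.38 prior degrees of freedom). Its p-values are two-sided, with Benjamini-Hochberg adjustment across the whole table and a threshold of 0.05. The number of arrays limits the precision. The test was checked on simulated independent values, where 98% of changes of 1 and 100% of changes of 2 were recovered. Of 210 calls there, 12 were false. As 0 members differed by 1 or more, the check does not cover differences of the size given here. The labels name no batch. The members and lists were chosen with earlier results of these data known. All members could be named; values in every array were given for the 12 of smallest p, the one of highest mean in each role and Rrm2, and for others (Bub1, Birc5, Mki67, Cdk1, Kif20a, Mcm2, Tyms, Foxm1) after their values were seen. Up to 3 genes of smallest p came from each related list. Alternatives were other filters, the mean of probe sets, quantile normalization, 2 kinds of centring, a robust intensity trend, array weights and each array left out; centring on the genes tested was chosen after seeing the data. Tables were made with Python 3.11.15 and pandas 2.3.3.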

Additional observations from a re-analysis of the deposited data

How the results depend on the processing

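No member passed the adjusted threshold under any of the settings or left-out arrays tried. The genes past it over the whole table numbered 51, and 86 with no filter, 197 with the intensity trend, 28 with array weights, 30 with the arrays centred on the median of the genes tested, and 9 to 44 with an array left out. Members higher at an unadjusted p under 0.05 numbered 2, and 1 with the filter at the 50th percentile, the arrays centred on the median of all named probe sets or the trend, 11 with the arrays centred on the genes tested, and 1 to 11 with an array left out (11 without Akita replicate 1, 1 without wild type replicate 4). Lower ones numbered 0, and 1 after quantile normalization, and 0 to 1 with an array left out. Members higher without overlap numbered 9, and 3, 4, 5 and 18 with that filter, quantile normalization and the same 2 centrings, and 10 to 26 with an array left out (26 without Akita replicate 1); lower ones 0, and 2 and 1 with quantile normalization and the first centring, and 0 to 7 with an array left out (7 without Akita replicate 3). The median of 0.145 ran from 0.01 (without Akita replicate 3) to 0.25 (without Akita replicate 1) with an array left out. Single differences turned sign for Anln (-0.023), Prc1 (-0.03), Rrm1 (-0.077), Tpx2 (-0.02) and Rrm2 (-0.027) without Akita replicate 3, and for E2f1 (-0.06) without Akita replicate 1. With an array left out, the highest were 0.657 (Anln), 0.73 (Prc1), 0.333 (Rrm1), 0.28 (Tpx2), 0.195 (Rrm2) and 0.41 (E2f1). Cenpf turned (-0.01) with the first centring, and Rrm2 with the mean of its probe sets (-0.017), quantile normalization (-0.011) and without wild type replicate 3 (-0.085). Members not followed in this way turned as well. Examples are Mki67 (-0.10) and Kif11 (-0.35) without Akita replicate 3, and Ccna2 (0.10) without Akita replicate 1. The cause was not tested. No paired analysis was possible because the groups share a single replicate number.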

Other observations

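Probe sets that carry the symbol of a member together with another gene were not assigned to either. The probe set shared by Ncapg and Lcorl lay at 3.80, 3.74 and 3.70 in the wild type arrays and at 3.72 and 4.0 in Akita replicates 1 and 3. The 2 probe sets shared by Top2a and Taf1d lay at 7.87 to 8.0 and 8.47 to 8.67 in wild type, and both differed by -0.20 in Akita, while the probe set of Top2a alone differed by 0.32. The probe set shared by Tyms and the pseudogene Tyms-ps lay at 3.49, 3.73 and 3.40 in wild type and at 3.92 and 4.26 in Akita, a difference of 0.55, in the same direction as Tyms itself.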
